A study of Mus musculus with 8 samples.

Results

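Peaks of the histone deacetylase HDAC1 were compared with peaks of acetylated histone H3 (H3ac) in mouse embryonic stem cells on day 2 of differentiation. The comparison used every peak deposited for that day: 5286 of HDAC1 and 17368 of H3ac, out of 41152 peaks in the series. It rests on 4 of the 8 libraries, 1 ChIP and 1 input library for each target. A protein-coding gene was taken as carrying a mark if its start or end had a peak no further than 1 kb away, since strand was known for only some genes. Of 21887 such genes, 9274 had at least 1 of the marks.

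All cells were 129/Ola embryonic stem cells plated on gelatin and differentiated for 2 days without serum in N2B27 medium. Chromatin was cross-linked and sonicated to fragments of about 200 bp, and libraries were amplified by 18 cycles of PCR. HDAC1 was precipitated through a FLAG tag (3 FLAG-HDAC1, Sigma antibody F7425), so the peaks are those of a tagged protein. H3ac was precipitated with a Millipore antibody. The labels give both targets the same strain, day and cell type, and do not say whether the H3ac libraries came from cells with the tagged HDAC1; the remaining H3ac libraries of the study, on days 4 and 6, were not used. The files give peak positions and scores but no read counts, so depth is unknown, and with 1 library a target there is no replicate error and no test. The scores are the authors' own on an unstated scale and rank peaks only within their own list. Shares are given with 95% Wilson intervals, which cover counting error only, and genes that share a peak are not independent.

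The label of the cells was checked with marker genes. Of 8 embryonic stem cell markers, 7 had H3ac at a gene end, and for the exception, Zfp42, the nearest H3ac peak lay 1006 bp away, just past the limit of 1 kb. None of 6 mesendoderm, 5 trophoblast and 4 extraembryonic endoderm markers had H3ac. Of 4 neural progenitor markers, Nes had it. In longer lists H3ac was at 20 of 29 pluripotency, 4 of 26 mesendoderm, 1 of 13 trophoblast and 2 of 18 extraembryonic endoderm genes. It was at 14 of 36 neural progenitor genes, and at 40.6% of all protein-coding genes.

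HDAC1 is a class I enzyme that removes acetyl groups from histone tails. It has no DNA-binding domain of its own and works in the Sin3, NuRD and CoREST complexes, which are brought to DNA by transcription factors. Acetylated H3 marks open promoters and enhancers of active genes, and deacetylases are known to be present at many active promoters as well as at silenced genes. REST, a zinc finger repressor of neuronal genes outside the nervous system, binds the RE1 element and recruits HDAC1-containing complexes.

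The first sequences shown are those around RE1 elements in promoters under an HDAC1 peak. They were chosen because HDAC1 was more frequent at neuronal genes without H3ac than at all genes without H3ac. The motif was searched as AGCACC and GGACAG separated by 2 bases, on both strands, and was added after the data had been seen. It occurs in 15 of 21263 RefSeq promoters of these genes (250 bases before to 50 after the start). Of these 15, 7 lay under an HDAC1 peak (46.7%, interval 24.8 to 69.9), against 4.75% of all promoters. Capitals mark the element, and each stretch reads 5′ to 3′ along the gene's strand.
Gad2: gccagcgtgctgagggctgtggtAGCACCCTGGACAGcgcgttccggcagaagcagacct
Lhx3: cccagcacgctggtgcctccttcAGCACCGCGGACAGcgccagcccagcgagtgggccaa
Ttc9b: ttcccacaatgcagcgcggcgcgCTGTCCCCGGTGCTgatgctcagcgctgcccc
Fbll1: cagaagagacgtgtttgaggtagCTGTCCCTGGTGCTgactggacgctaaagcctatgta
Ogdhl: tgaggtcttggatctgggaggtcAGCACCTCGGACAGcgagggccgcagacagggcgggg
Sptbn4: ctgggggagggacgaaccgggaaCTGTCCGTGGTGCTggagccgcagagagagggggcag
Scamp5: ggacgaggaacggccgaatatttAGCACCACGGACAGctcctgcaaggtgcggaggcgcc
The stretches lie, in RefSeq GRCm38.p6, at chr2:22622141-22622200 (plus strand) for Gad2, chr2:26208253-26208312 (minus) for Lhx3 and chr7:27653919-27653973 (plus) for Ttc9b. Those of Fbll1 and Ogdhl are at chr11:35799036-35799095 (minus) and chr14:32321894-32321953 (plus). Those of Sptbn4 and Scamp5 are at chr7:27396260-27396319 (minus) and chr9:57468175-57468234 (minus). Gad2 encodes a GABA-synthesising enzyme and Lhx3 a LIM homeodomain factor of motor neurons and pituitary. The first 5 had HDAC1 alone, with HDAC1 scores of 92.70 at Gad2, 97.87 at Lhx3, 63.37 at Ttc9b, 116.76 at Fbll1 and 68.38 at Ogdhl. Sptbn4, a spectrin of the axon initial segment, had both marks, with scores of 95.45 for HDAC1 and 89.07 for H3ac. Scamp5, a protein of synaptic vesicles, also had both, with scores of 64.30 and 124.43. No promoter with this element belonged to a gene with H3ac alone.

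A further 3 whole promoters of genes with both marks show the ETS, YY1 and BANP motifs, whose shares are given with the promoter results, and were picked after their values had been seen. Flad1, which encodes FAD synthase, had an HDAC1 score of 261.11 and an H3ac score of 64.14, and capitals mark an ETS motif. Kif15, a mitotic kinesin, had scores of 221.69 and 388.69, and capitals mark a YY1 motif. Gpatch3 had scores of 140.50 and 108.18, and capitals mark a BANP motif, then a YY1 motif.
Flad1: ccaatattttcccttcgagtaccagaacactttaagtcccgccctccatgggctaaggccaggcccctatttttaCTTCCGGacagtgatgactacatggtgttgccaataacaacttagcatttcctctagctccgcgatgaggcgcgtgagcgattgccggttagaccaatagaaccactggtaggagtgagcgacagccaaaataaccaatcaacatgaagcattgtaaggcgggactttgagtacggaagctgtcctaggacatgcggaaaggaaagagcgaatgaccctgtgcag
Kif15: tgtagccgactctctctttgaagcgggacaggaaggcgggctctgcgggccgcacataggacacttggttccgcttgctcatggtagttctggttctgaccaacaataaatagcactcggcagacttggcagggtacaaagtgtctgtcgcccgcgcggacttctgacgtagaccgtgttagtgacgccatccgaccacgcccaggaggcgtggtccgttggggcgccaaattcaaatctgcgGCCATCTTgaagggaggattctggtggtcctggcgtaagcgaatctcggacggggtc
Gpatch3: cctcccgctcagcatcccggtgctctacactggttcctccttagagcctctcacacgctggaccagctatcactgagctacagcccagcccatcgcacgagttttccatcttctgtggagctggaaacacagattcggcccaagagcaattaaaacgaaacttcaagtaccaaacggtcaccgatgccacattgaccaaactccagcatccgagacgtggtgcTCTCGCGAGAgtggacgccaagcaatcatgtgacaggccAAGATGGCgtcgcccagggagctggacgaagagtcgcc
They lie in RefSeq GRCm38.p6 at chr3:89411832-89412131 (minus strand), chr9:122950831-122951130 (plus) and chr4:133574495-133574794 (plus), and each runs from 250 bases before the start to 50 after it.

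Genes were first sorted by which marks they carried. Both marks were present at 1661 genes, HDAC1 alone at 396, H3ac alone at 7217 and neither at 12613. HDAC1 was thus found at 18.7% of genes with H3ac (interval 17.9 to 19.5), at 3.04% of genes without it (2.76 to 3.35) and at 9.40% of all protein-coding genes. The genes with both were marked by 1344 distinct HDAC1 peaks and those with HDAC1 alone by 376, because neighbouring genes can share a peak.

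The 2 marks usually met at the same place. Of the 1661 genes with both, 1593 (95.9%) had them at the same end. At 1333 (80.3%) the highest HDAC1 peak overlapped an H3ac peak. The highest HDAC1 and the highest H3ac gene-end peaks overlapped each other at 1089 (65.6%). Where the gene's strand was known, the HDAC1 peak lay at the start of 1244 of 1367 genes with both (91.0%) and of 269 of 315 with HDAC1 alone (85.4%). The H3ac peak lay at the start of 1265 of the 1367 (92.5%), so most peaks of either mark were at the same kind of end. At 259 of the 396 genes with HDAC1 alone the nearest H3ac peak was more than 10 kb away, and at 45 it lay between 1 and 2.5 kb. Among the genes with H3ac alone, the nearest HDAC1 peak was beyond 10 kb at 6212 and between 1 and 2.5 kb at 276. Some named genes sit close to the limit. For Celsr3 the nearest H3ac peak was 1124 bp from the gene end and for Vldlr 1221 bp, whereas for Scrt1, just inside, it was 881 bp. For Nodal, Chd4 and Otx2 the nearest HDAC1 peak was 1189, 1104 and 1309 bp away, whereas for Zic2 it was 953 bp.

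HDAC1 was more frequent at genes with stronger acetylation peaks. Genes with H3ac were ranked by the score of their highest gene-end H3ac peak and divided into 5 equal groups. From the lowest to the highest quintile, HDAC1 was present at 11.8%, 14.4%, 17.5%, 20.5% and 29.4% of the genes. The interval of the highest quintile was 27.3 to 31.6% and that of the lowest 10.4 to 13.3%, so they did not overlap. The width of the H3ac peak gave a similar series, from 11.8% in the narrowest quintile to 27.9% in the widest. Genes with at least 2 H3ac peaks at their ends had HDAC1 at 22.9%, against 16.6% of genes with 1. The median H3ac score was 176 at genes with both (quartiles 102 and 298) and 126 at genes with H3ac alone (77.5 and 213), so the score ranges overlapped widely. The median H3ac width was 945 bp and 777 bp. The HDAC1 scores hardly separated the classes, with medians of 67.2 at genes with both and 63.9 at genes with HDAC1 alone.

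The relation did not run the same way from the side of HDAC1. When all HDAC1 peaks were ranked by their own score, 24.4% to 30.5% overlapped an H3ac peak in the lower 9 of 10 equal groups. In the highest group, with HDAC1 scores above 125, 21.6% did (18.3 to 25.3). The share of HDAC1 peaks at a gene end was also lowest there, at 26.5%, against 31.1% to 35.2% in the other groups.

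**Figure D1:**
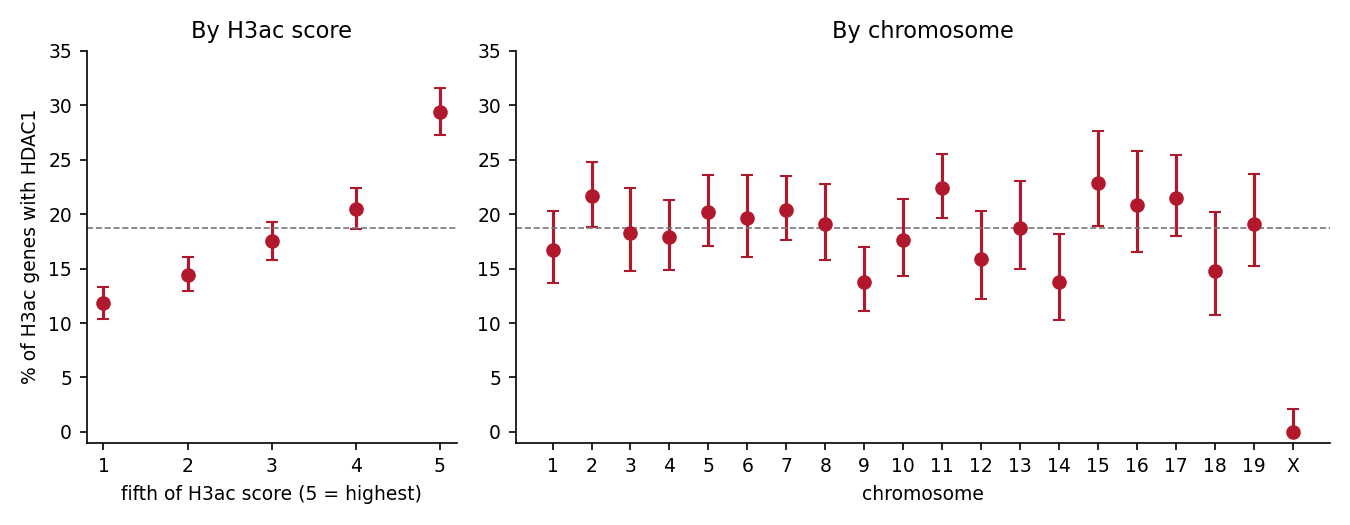
Percent of genes with H3ac that also had HDAC1, by quintile of H3ac score (left) and by chromosome (right). Points are shares, bars 95% Wilson intervals and the dashed line the share over all H3ac genes, 18.7%. The share climbs to 29.4% in the highest quintile, and the X chromosome stands at 0.

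The X chromosome stood apart. None of its 179 genes with H3ac had HDAC1, for which the Wilson interval reaches 2.10% and a limit of 3 counts 1.68%, whereas the autosomes together had 19.1% (1661 of 8698) and ranged from 13.8% on chromosomes 9 and 14 to 22.9% on chromosome 15. The X carried 279 H3ac peaks and 24 HDAC1 peaks, against 17078 and 5258 on the autosomes together and 1 and 3 on the Y. The HDAC1 peaks that were called on the X had a median score of 67.7, close to the 65.3 of autosomal peaks. H3ac genes on the X had a median H3ac score of 92.7, against 135 on autosomes. The X value lies in the second of the score quintiles, where 14.4% of all H3ac genes had HDAC1. Over all H3ac peaks, at genes or not, the median score was 83.9 on the X and 80.2 on autosomes. The X-linked protein-coding gene with HDAC1 was Syn1, for synapsin I of synaptic vesicles, with HDAC1 alone at a score of 76.28 (named after its value was seen). The labels do not state the sex of the cell line or its X copy number, and their part in the difference was not tested.

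Within acetylated regions, HDAC1 peaks lay neither at a fixed point nor mainly at the edges. Among the 1464 HDAC1 peaks that overlapped an H3ac peak, the midpoints of the pair were a median 242 bp apart (quartiles 118 and 392), while the H3ac peak had a median width of 922 bp. The HDAC1 midpoint was inside the H3ac peak for 1224 (83.6%), and the whole HDAC1 peak for 814. The inner 50% of the H3ac peak held 48.5% of all 1464 midpoints (45.9 to 51.1), those outside the peak included. This was 710 of the 1224 midpoints inside it. In steps of 0.25 of the distance from the H3ac midpoint to its edge, the shares were 24.7%, 23.7%, 21.2% and 14.0%. Beyond the edge they were 9.70%, 4.30% and 2.39%.

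The share in the inner 50% was higher for wider H3ac peaks. In the narrowest tercile of H3ac peaks, the inner 50% held 39.5% of HDAC1 midpoints, in the middle tercile 46.7% and in the widest 59.2% (54.8 to 63.5). Pairs needed to share only 1 bp, and the midpoint was inside the H3ac peak for 71.7%, 85.5% and 93.6% of them. Counting only midpoints inside, the inner 50% held 193 of 350 in the narrowest, 228 of 417 in the middle and 289 of 457 in the widest tercile, so the narrow and the middle tercile were close. At gene ends 50.2% of midpoints were in the inner 50%, in gene bodies 43.3% and outside genes 42.7%, with intervals that overlapped. An H3ac peak with HDAC1 usually had a single HDAC1 peak: 1299 had 1 and 81 had 2 or more.

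Most HDAC1 peaks were either on acetylated chromatin or far from it. Over all 5285 HDAC1 peaks on the main chromosomes, 23.2% had their midpoint inside an H3ac peak and 5.83% within 250 bp outside its edge. A further 2.46% lay between 250 and 500 bp and 2.89% between 500 bp and 1 kb, whereas 53.1% were beyond 10 kb. At gene ends 54.8% were inside and 17.8% beyond 10 kb. Outside genes 4.13% were inside and 78.6% beyond 10 kb. Of the 591 midpoints that lay outside but within 1 kb of an H3ac edge, 86 (14.6%) had H3ac within that distance on both sides.

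**Figure D2:**
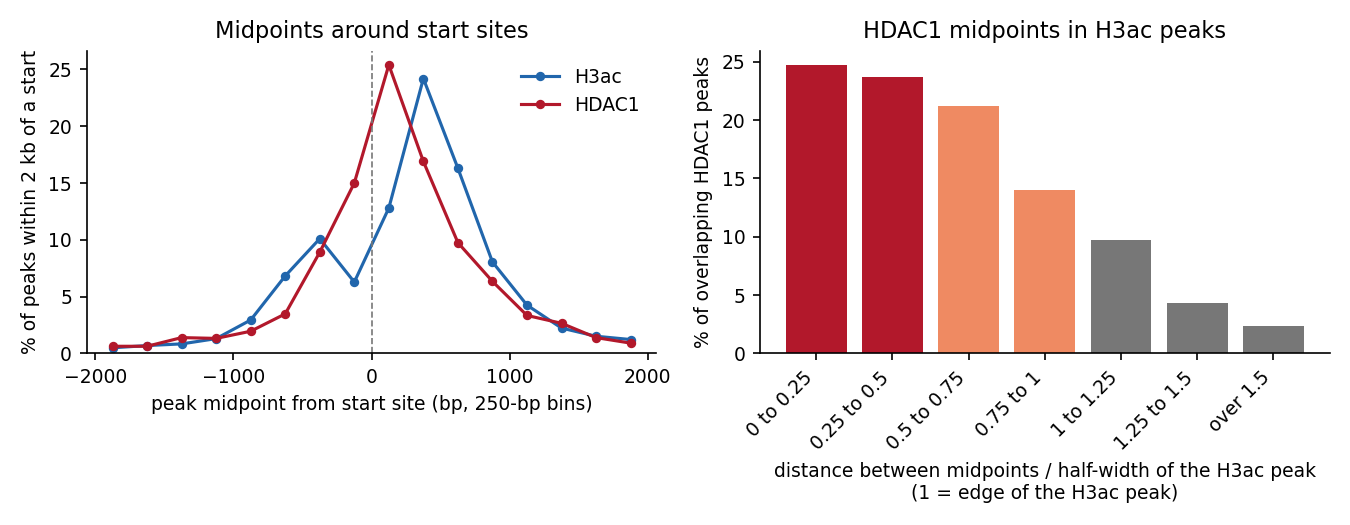
Left, midpoints of HDAC1 and H3ac peaks around start sites with no other gene's start within 2 kb, as percent of the peaks of each target within 2 kb, in bins of 250 bp. Right, distance between HDAC1 and H3ac midpoints for the 1464 overlapping pairs, as a fraction of the H3ac half-width. HDAC1 is highest in the first bin after the start (25.4%), H3ac in the next (24.2%), and H3ac has a low point just before the start (6.28%).

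Relative to start sites, the marks had different profiles. At starts with no other gene's start within 2 kb, the median HDAC1 midpoint was 141 bp downstream (quartiles −121 and 478, 1436 peaks) and the median H3ac midpoint 330 bp downstream (−178 and 613, 8132 peaks). HDAC1 midpoints were within 250 bp of the start for 40.6% (38.1 to 43.2) and H3ac midpoints for 19.2% (18.4 to 20.1). H3ac midpoints fell into a larger group 250 to 500 bp downstream (24.2%) and a smaller one 250 to 500 bp upstream (10.1%), with 6.28% in the 250 bp before the start. HDAC1 midpoints had no such gap: 15.0% lay in the 250 bp before the start and 25.4% in the 250 bp after it. At 1013 genes with both marks within 2 kb of such a start, the median positions were 131 bp for HDAC1 and 380 bp for H3ac. HDAC1 was the closer of the pair at 664 of these (65.5%, interval 62.6 to 68.4). H3ac peaks were also the wider ones, and the part of width in this offset was not tested.

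The families of acetylated genes were then compared by how often HDAC1 joined H3ac. Counts are members with both marks out of members with H3ac, and 18.7% is the share over all H3ac genes. Because lists differ in H3ac score, the share of all H3ac genes in the quintile of the list's median score is given where it matters.

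The highest share among lists with at least 15 H3ac genes was that of amino acid and ATF4 target genes, the genes of the response to amino acid shortage and protein stress, with 11 of 20 (55.0%, interval 34.2 to 74.2). Their median H3ac score, 211, was in a quintile where 20.5% of H3ac genes had HDAC1. Psat1, an enzyme of serine synthesis, had an HDAC1 score of 158.53 and an H3ac score of 369.88. Chac1, which degrades glutathione, had 133.44 and 167.34, with midpoints 12 bp apart. Slc3a2, the heavy chain of several amino acid transporters, had 128.35 and 1401.82, and Mthfd2, a mitochondrial folate enzyme, had 101.06 and 76.27. Atf3, a stress-induced factor, and Vldlr, a lipoprotein receptor, had HDAC1 alone at 85.52 and 51.01. Psph, Atf5 and Ddit4 had H3ac alone, with H3ac scores of 503.95, 477.69 and 346.58.

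The machinery that builds ribosomes and starts translation was also marked often. Ribosome biogenesis genes had both marks at 16 of 40 (40.0%, 26.3 to 55.4). Among them Gar1, a protein of the snoRNPs that modify rRNA, had scores of 174.97 for HDAC1 and 378.40 for H3ac, and Nop16 had 142.13 and 282.16. Bop1, needed for the large subunit, had 113.61 and 317.63, and nucleolin (Ncl) had 91.20 and 1213.13. Nhp2, Gnl3 and Nop58 had H3ac alone, with H3ac scores of 983.04, 696.34 and 637.02. Translation initiation factors had both at 18 of 49 (36.7%, 24.7 to 50.7), with Eif4a2, an RNA helicase of the cap-binding complex, at 140.83 and 1379.42. Eif2b1 stood at 126.00 and 133.35 and shares its HDAC1 peak with the divergent Gtf2h3, a TFIIH subunit. Both lists had median H3ac scores in the highest quintile, where 29.4% of H3ac genes had HDAC1, and the intervals of both lists include that share.

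The ribosomal proteins themselves had a share near that of all H3ac genes. Cytosolic ribosomal protein genes had the highest median H3ac score of these groups, 594, and HDAC1 was at 16 of 78 (20.5%, 13.0 to 30.8). That interval includes the 29.4% of their quintile and overlaps those of ribosome biogenesis genes and initiation factors. Rpl13a, with the highest H3ac score of any gene with H3ac alone, 2065.48, had its nearest HDAC1 peak 46219 bp away, and that of Rps19, with an H3ac score of 1282.22, was 120200 bp away. Rpl4 and Rps18 had both, with HDAC1 scores of 117.19 and 105.84. Mitochondrial ribosomal protein genes had both at 16 of 70 (22.9%). Those of the large subunit (Mrpl) had 13 of 44 and those of the small subunit (Mrps) 3 of 26, with overlapping intervals of 18.2 to 44.2% and 4.00 to 29.0%.

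Glycolysis genes had both at 7 of 17 (41.2%, 21.6 to 64.0). Within 0.5 kb it was 2 of 14 (14.3%, 4.01 to 39.9), below the 16.2% of all H3ac genes at that distance. The muscle enolase Eno3 had an HDAC1 score of 241.93 and an H3ac score of 108.38, Gapdh had 129.07 and 1728.85, and hexokinase Hk2 had 116.91 and 151.74. Oxidative phosphorylation genes had both at 16 of 72 (22.2%), close to the share over all H3ac genes. In the transcription machinery the shares were 33.3% for Mediator subunits (9 of 27), 30.2% for RNA polymerase II subunits and general factors (13 of 43) and 30.2% for Ddx and Dhx RNA helicases (13 of 43). The lower bound of each of these 3 lists was 18.6%, just under the share over all H3ac genes.

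Shares below that of all H3ac genes were seen for several families, large and small. C2H2 zinc finger genes of the Zfp series, many of them repressors, had both at 33 of 238 (13.9%, 10.0 to 18.8), and solute carriers at 19 of 128 (14.8%, 9.71 to 22.0). Replication-dependent histone genes had both at 5 of 52 (9.62%, 4.18 to 20.6), proteasome subunits at 5 of 35 (14.3%) and Wnt pathway genes at 1 of 22 (4.55%, 0.807 to 21.8). The exception in the Wnt list, Dvl1, a cytoplasmic transducer of the signal, carried the HDAC1 peak at its end, where it neighbours Tas1r3, and the H3ac peak at its start, with midpoints 11614 bp apart. The intervals of all these low lists reach the share over all H3ac genes. Within 2.5 kb the histone genes, at 5 of 54 (9.26%, 4.02 to 19.9), lay wholly below the 21.2% of all H3ac genes, and the Wnt genes were at 4 of 24 (16.7%). When genes were grouped by symbol stem, 38 stems had at least 20 H3ac genes. They ran from 9.52% for Fbxo (2 of 21) to 36.7% for Eif (18 of 49). The Eif and Zfp stems repeat the counts of the initiation factor and zinc finger lists.

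**Figure D3:**
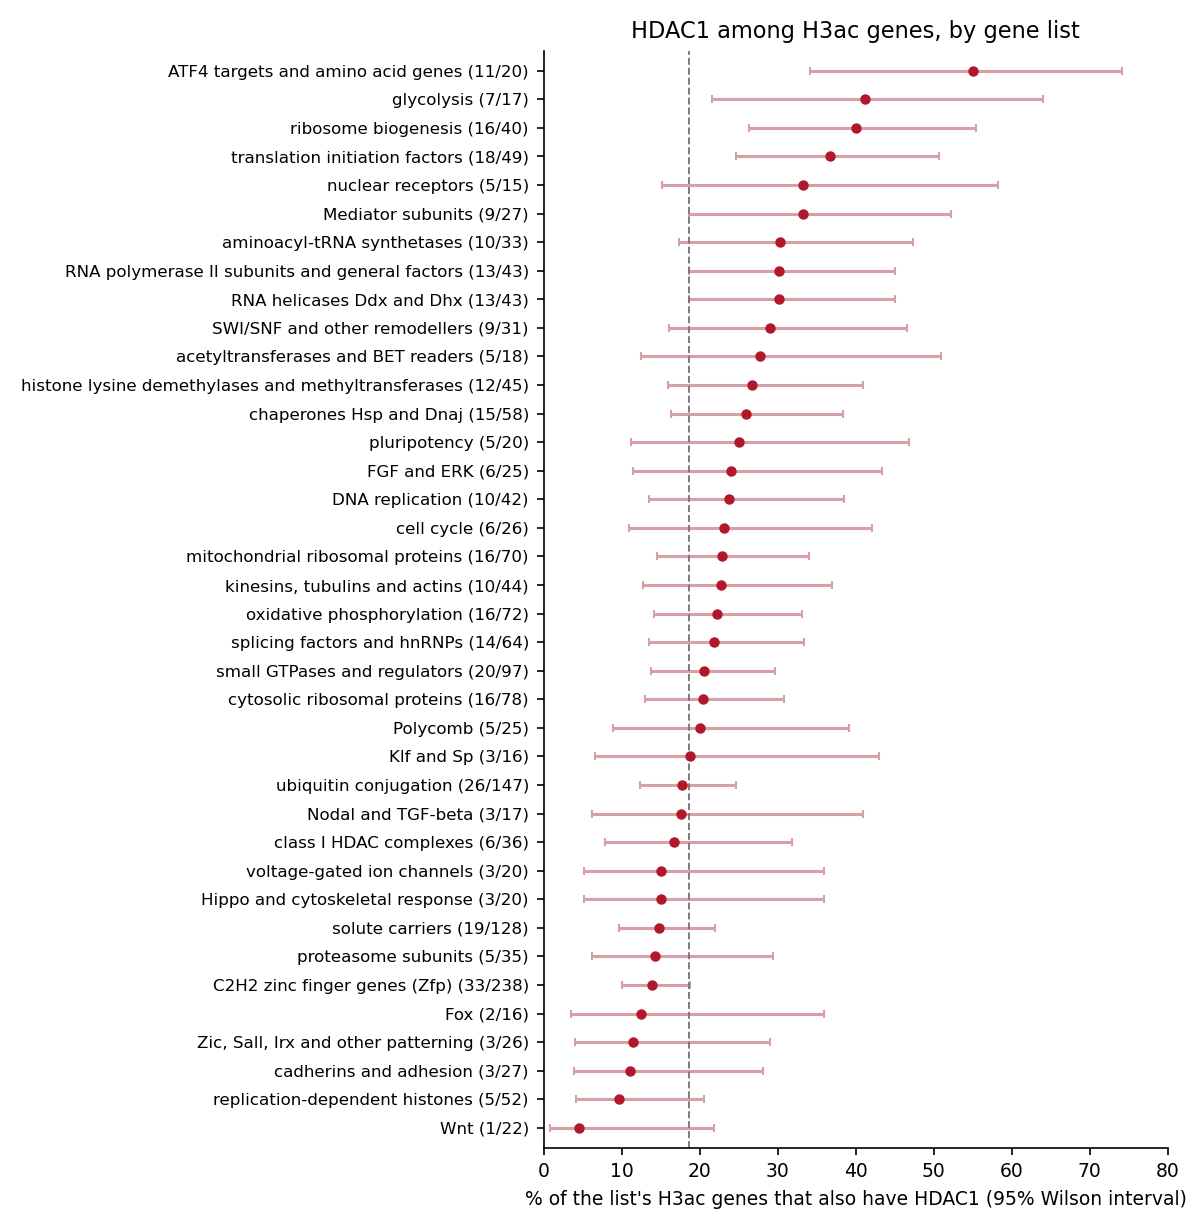
Percent of each list's H3ac genes that also had HDAC1, with 95% Wilson intervals, for lists with at least 15 H3ac genes; counts stand in brackets and the dashed line is the share over all H3ac genes, 18.7%. The top 4 lists, from ATF4 targets (55.0%) to translation initiation factors (36.7%), have intervals above the line, and none lies wholly below it.

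Developmental regulators were split between the classes. Of 20 pluripotency genes with H3ac, 5 had HDAC1 (25.0%, 11.2 to 46.9), and 6 of 15 when start sites alone were used. Pou5f1, which encodes Oct4, had scores of 145.14 for HDAC1 and 1035.01 for H3ac. These highest peaks of each mark did not overlap each other, and their midpoints were 1872 bp apart. Sox2 had scores of 86.55 and 302.68, with midpoints 2459.5 bp apart. Mycn and Utf1 had overlapping peaks, with HDAC1 scores of 103.18 and 58.34 and H3ac scores of 1004.03 and 607.20. Klf5 had HDAC1 alone, at 59.05. Gdf3, Tdgf1 and Dppa4 had H3ac alone, with H3ac scores of 538.31, 226.62 and 147.91, and so did Nanog and Klf4, near the lower end of the list at 52.10 and 52.61. Esrrb had neither.

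Primed epiblast genes, which are active in the post-implantation epiblast, had both at 5 of 12 (41.7%, 19.3 to 68.0), at 3 of 12 within 0.5 kb and at 9 of 12 within 2.5 kb. Pou3f1 had scores of 117.19 for HDAC1 and 433.48 for H3ac, and the DNA methyltransferase Dnmt3b had 81.21 and 385.85. Zic5, a zinc finger factor, had 68.73 and 160.31. Fgf5, Otx2 and Lef1 had H3ac alone, each with an HDAC1 peak 1435, 1309 and 1893 bp from a gene end. In the Myc and Max network 4 of 9 had both: Mnt, a Myc antagonist, with HDAC1 and H3ac scores of 119.56 and 205.07, Mycn, Max (53.43 and 88.18) and Mlxip (52.56 and 54.24). Myc had H3ac alone at 376.26. Of 26 mesendoderm genes, 4 had H3ac alone, 1 had HDAC1 alone and 21 had neither. The regulators T, Eomes, Mixl1, Gsc and Foxa2 had neither mark, and the HDAC1 peaks nearest to T, Eomes and Mixl1 were 206425, 118183 and 65036 bp away. Of feedback inhibitors of FGF and ERK signalling, Spry2 and Dusp4 had both, with HDAC1 scores of 62.74 and 89.29, and Dusp6 had H3ac alone at 670.23.

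Genes of class I HDAC complexes, a list not limited to complexes of HDAC1, had HDAC1 about as often as other H3ac genes. It was at 6 of 36 (16.7%, 7.87 to 31.9). The count depended on the distance: it was 13 of 36 within 2.5 kb (36.1%, 22.5 to 52.4, against 21.2% of all H3ac genes) and 3 of 32 within 0.5 kb (9.38%, against 16.2%). Ncor1, a corepressor, had scores of 97.95 for HDAC1 and 592.99 for H3ac, and these highest peaks did not overlap each other. The Hdac1 gene itself had 72.54 and 79.45, with midpoints 410 bp apart. Hdac2 had H3ac alone at 161.66, and so did Chd4 (484.16), Gatad2b (428.02) and Rest (458.04). Gps2, a subunit of the NCoR complex, had HDAC1 alone at 115.27.

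The highest HDAC1 peaks at acetylated genes were of mixed kinds. At Dvl1 (HDAC1 score 1294.90), Mast1 (816.47), Mapk8ip2 (446.07) and Scrt1 (420.77), the highest HDAC1 and highest H3ac gene-end peaks did not overlap each other. Overlap of these HDAC1 peaks with other H3ac peaks is not given here. Those with overlapping peaks included Cyb5r4, with an HDAC1 score of 565.77 and an H3ac score of 90.90, Uhrf1, a partner of the maintenance DNA methyltransferase, at 296.25 and 627.28, and Hmgcs1, of cholesterol synthesis, at 263.24 and 97.50. Peaks also overlapped at Nlrp12, with 292.47 and 501.01, whose end is described with the miRNAs, and at Yif1a, with 264.72 and 78.44. Among genes with H3ac alone, Rpl13a was followed by Ncapd2, a condensin subunit whose H3ac peak (1728.85) it shares with Gapdh, then by Brd2, a bromodomain reader of acetylated histones, and H2-DMa, which share a peak of 1591.64.

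The highest HDAC1 scores at genes without H3ac included several genes known from neurons and sense organs. Cacng2, which encodes the AMPA receptor auxiliary subunit stargazin, had the highest HDAC1 score of the class, 1605.44, from a peak at chr15:78119771-78120250 across its start, with the nearest H3ac peak 20052 bp away. Gprin1, linked to neurite outgrowth, had 1500.03, Vstm2l 1345.97, the taste receptor gene Tas1r3 1294.90 and the glycine receptor gene Glra1 1211.63. Celsr3, an atypical cadherin of axon guidance, had 924.13. Rtbdn, a retinal protein gene that shares its peak with Mast1, had 816.47, and Xkr7 had 995.80. The list of 10 ends with genes of the immune system, Cd300e at 624.16 and Naip5 at 603.35, both with the peak near the end of the gene.

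HDAC1 was then counted at neural genes that had no H3ac peak, beside the share of 3.04% over all genes without H3ac. It was found at 10 of 28 neuronal genes under REST (35.7%, 20.7 to 54.2), 10 of 72 neurotransmitter receptor genes (13.9%, 7.72 to 23.7) and 12 of 114 voltage-gated channel genes (10.5%, 6.12 to 17.5). Together, with shared members counted once, these made 28 of 204 genes (13.7%, 9.67 to 19.1). All 3 intervals lie above 3.04%. The REST list came from general knowledge after earlier results were known, and so is not independent of them. Snap25, a SNARE protein of synaptic vesicle release, had an HDAC1 score of 434.46, Cacng3 390.90, the serotonin receptor gene Htr5a 164.39 and the nicotinic receptor gene Chrna3 157.20. The 28 genes had a median HDAC1 score of 93.0 (quartiles 63.4 and 155), against 63.6 (53.9 and 83.9) for the other 368 genes with HDAC1 alone. HDAC1 was not limited to neural genes without H3ac. Among members with H3ac it was at 4 of 10 genes under REST (40.0%, 16.8 to 68.7). It was at 3 of 13 receptor genes (23.1%) and 3 of 20 channel genes (15.0%), against 18.7% of all H3ac genes. In the REST list, Cplx1, of synaptic vesicle fusion, had 118.53 for HDAC1 and 75.25 for H3ac, with midpoints 50.5 bp apart. Bdnf had 65.22 and 260.95.

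Other families without H3ac differed. HDAC1 was at none of 1107 olfactory receptor genes without H3ac, for which the Wilson interval reaches 0.346% and a limit of 3 counts 0.271%. It was at none of 22 neural progenitor genes (interval up to 14.9%), at 1 of 37 Hox genes (2.70%, 0.479 to 13.8) and at 1 of 22 mesendoderm genes (4.55%, 0.807 to 21.8), and all 3 intervals include 3.04%. Of 15 genes typical of adult tissues, 2 had HDAC1 (13.3%, 3.74 to 37.9), an interval above 3.04%. Ubiquitin conjugation genes (9 of 137, 6.57%, 3.49 to 12.0) were also above 3.04%. Solute carriers (10 of 218, 4.59%) and Zfp genes (6 of 159, 3.77%) had intervals that include it. Some small lists lay above it too: ATF4 targets (2 of 5, 11.8 to 76.9) and Klf and Sp genes (2 of 10, 5.67 to 51.0). So did lysine demethylases and methyltransferases (2 of 17, 3.29 to 34.3), class I HDAC complexes (1 of 5) and the Myc network (1 of 3). Intervals above 3.04% were thus not limited to neural lists.

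**Figure D4:**
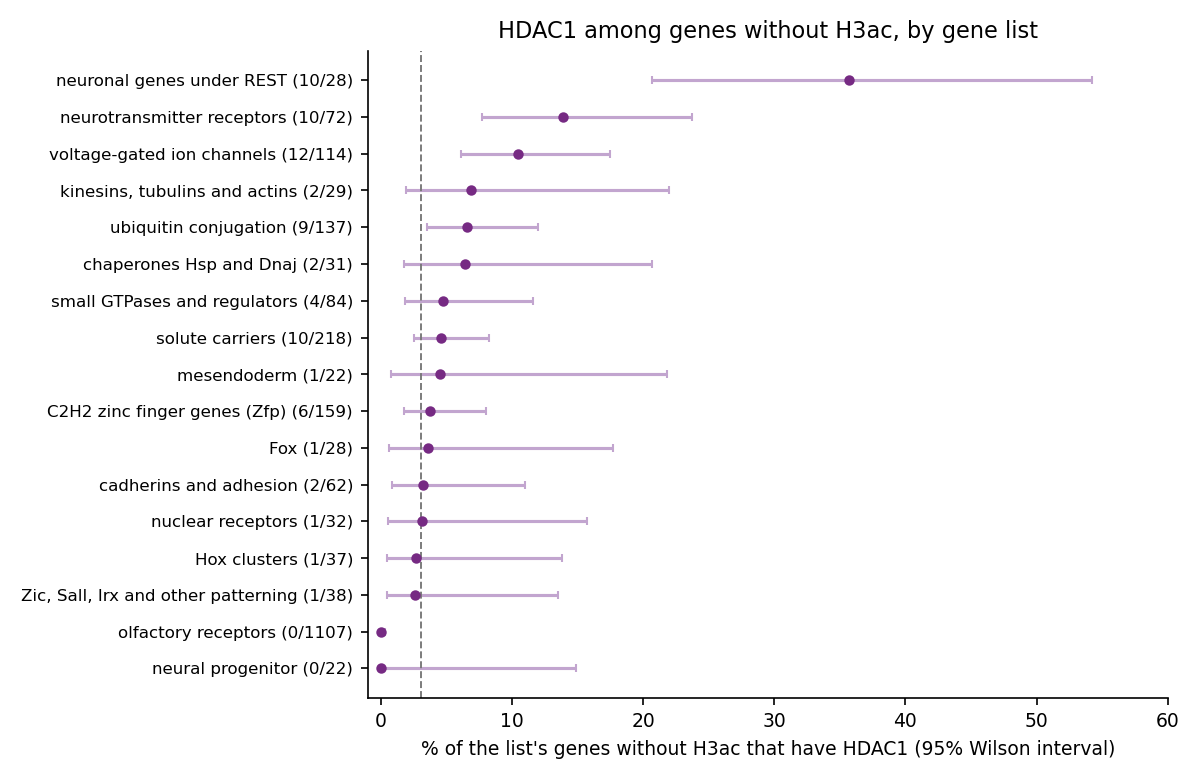
Percent of each list's genes without H3ac that had HDAC1, with 95% Wilson intervals, for lists with at least 20 such genes; counts stand in brackets and the dashed line is the share over all genes without H3ac, 3.04%. Neuronal genes under REST (35.7%), neurotransmitter receptors (13.9%) and voltage-gated channels (10.5%) are at the top, and olfactory receptors are at 0.

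Promoters of genes with both marks resembled those of genes with H3ac alone in base composition but held some motifs more often. The median number of CpG in 300 bases was 23 in genes with both, 21 with H3ac alone, 16 with HDAC1 alone and 5 with neither, and median GC content was 61.3% in both of the first classes. Every RefSeq promoter of a gene was counted in the gene's class, so the H3ac peak need not lie on the promoter. Promoters of the same gene or of a divergent pair can overlap and count the same motif, so promoters are not independent. The ETS motif (CCGGAAG, either strand) was in 11.6% of all promoters and in 19.2% of those at genes with H3ac alone (18.3 to 20.1). It was in 32.7% (29.5 to 36.1) of the 777 promoters under an HDAC1 peak at genes with both marks. Where the HDAC1 peak lay elsewhere at the gene ends, the motif was in 16.7% (14.4 to 19.2). ETS factors such as GABP bind this motif at promoters of housekeeping genes. Within each quintile of H3ac score the share under an HDAC1 peak was the higher one, from 32.5% against 11.8% in the lowest to 36.4% against 25.1% in the highest. The intervals overlapped in the second quintile and in no other.

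The E-box CACGTG, bound by Myc and USF factors, was in 15.6% (13.2 to 18.3) of promoters under an HDAC1 peak at genes with both marks. It was in 10.1% with H3ac alone and in 7.84% of all. The E2F motif TTCCCGC was in 12.0%, 8.66% and 5.95%. The YY1 motif AAGATGGC was in 6.95%, 4.75% and 3.05%, and the BANP motif TCTCGCGA in 3.60%, 2.47% and 1.41%. For BANP the intervals under an HDAC1 peak and with H3ac alone overlap. Where the HDAC1 peak lay elsewhere at the gene ends, YY1 was in 6.39% and BANP in 4.33%. Neighbouring motifs can share bases, and each was counted on its own. The GC box GGGCGG was in 61.3% under an HDAC1 peak and 65.5% with H3ac alone, and CCAAT in 40.8% and 38.6%. The TATA sequence TATAAA was in 3.73%, 6.52% and 12.6%. A match describes letters in the window and not a bound site.

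**Figure D5:**
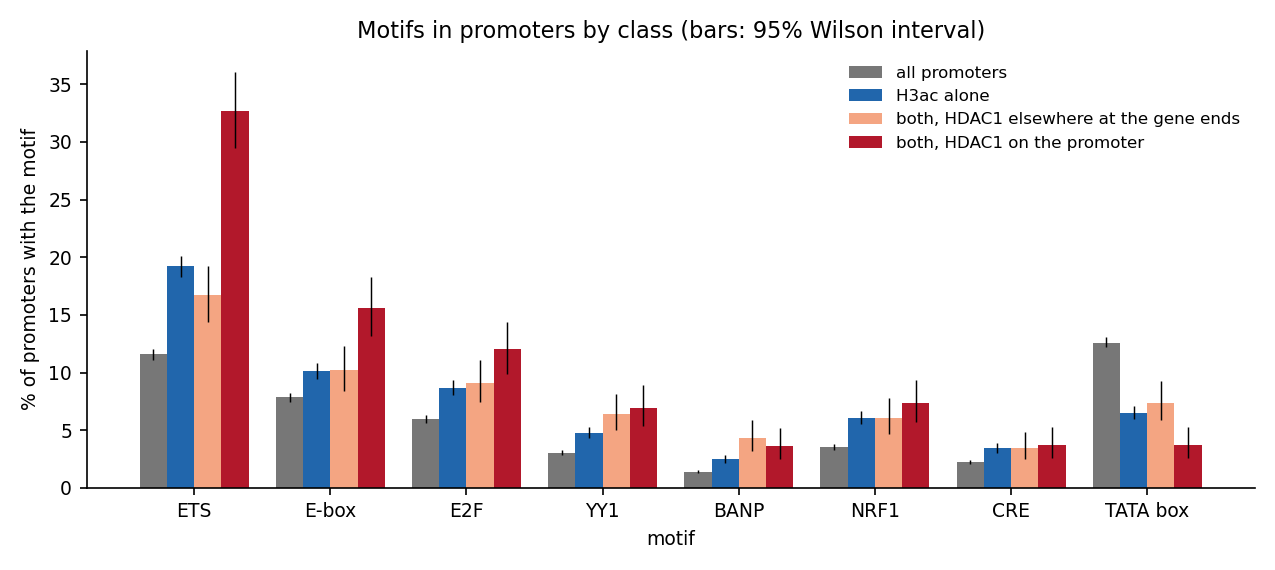
Percent of promoters with each motif in all promoters, at genes with H3ac alone, and at genes with both marks where the HDAC1 peak lay elsewhere at the gene ends or on the promoter itself; bars are shares and lines 95% Wilson intervals. ETS differs most, at 32.7% under an HDAC1 peak against 19.2% with H3ac alone.

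Genes whose promoters face another gene's start carried both marks more often. A start of another gene on the opposite strand lay within 1 kb upstream of 26.0% of genes with both (356 of 1367), 15.9% with H3ac alone (927 of 5833), 3.81% with HDAC1 alone (12 of 315) and 1.88% with neither. Among H3ac genes, HDAC1 was at 27.7% of those with such a divergent start (25.4 to 30.3) and at 17.1% of the rest (16.1 to 18.1). The difference kept its direction in every quintile of H3ac score, from 26.1% against 10.7% in the lowest to 34.6% against 26.8% in the highest. The intervals overlapped in the second and the third quintile. A divergent pair can share a peak, so its genes are not independent. With a window of 1 kb, a peak at the neighbour's start can also mark the gene itself. This favours divergent genes by construction, and its part in the difference was not tested. The ETS motif was more frequent under HDAC1 peaks without a divergent start as well, at 31.3% (27.5 to 35.4) against 17.3% (16.3 to 18.3) with H3ac alone. With a divergent start it was in 35.6% (29.9 to 41.8) and 29.2% (26.6 to 31.8), and these intervals overlap.

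Genes that encode no protein showed the same classes. Of lncRNA genes with H3ac, 212 of 1555 had HDAC1 (13.6%, 12.0 to 15.4), of snoRNA genes 34 of 143 (23.8%, 17.5 to 31.4) and of tRNA genes 7 of 158 (4.43%, 2.16 to 8.86). Of 1005 miRNA hairpins in the RefSeq table, 20 had both marks, 10 HDAC1 alone and 114 H3ac alone. The 20 with both rested on 10 HDAC1 peaks.

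The miR-290 cluster, whose miRNAs are among the most abundant of mouse embryonic stem cells and hasten their G1 to S transition, had both marks. The HDAC1 peak at chr7:3218620-3219270 (score 292.47) covered the Mir290a and Mir292 hairpins and overlapped an H3ac peak with a score of 501.01, and the midpoints were 242 bp apart. The same peaks mark the end of Nlrp12. Mir294 and Mir295 lay 916 and 799 bp from a further HDAC1 peak with a score of 65.95. Mature sequences of the 3′ arms, on the plus strand, are shown because they share bases 2 to 7, AAGUGC. Capitals mark the seed (bases 2 to 8), which is AAGUGCU in miR-291a, miR-294 and miR-295 and differs at base 8 in the other two.
miR-290a-3p: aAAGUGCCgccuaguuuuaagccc
miR-291a-3p: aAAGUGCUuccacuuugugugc
miR-291b-3p: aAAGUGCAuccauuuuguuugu
miR-294-3p: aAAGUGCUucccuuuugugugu
miR-295-3p: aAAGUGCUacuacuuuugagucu
They lie at chr7:3218674-3218697, chr7:3218968-3218989, chr7:3219529-3219550, chr7:3220691-3220712 and chr7:3220815-3220837 in RefSeq GRCm38.p6. On the X, where no protein-coding gene had both marks, the hairpins of the Mir106a to Mir363 cluster did, from 1 HDAC1 peak with a score of 64.57 at chrX:52741843-52742209. Mir7b had the highest HDAC1 score of any hairpin, 732.72, with no H3ac peak closer than 12355 bp.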

How the data were processed

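The submitters' processing notes name Bowtie 0.12.8 and build mm10. Peak names in the deposited lists start with MACS, a peak caller. Which version and threshold were used, and whether input was subtracted, is not given in the sources used here. Every deposited list holds the chromosome, start, end and a score per peak, and the score is the authors' value, running from 50.00 to 3100.00 for HDAC1. Called peaks depend on depth and on the caller, so a gene without a peak can still be bound or acetylated.

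Peaks off the main chromosomes, 1 of HDAC1 and 10 of H3ac, were left out, and coordinates are 1-based. Genes, promoters (21263 promoters of 17492 genes) and miRNAs came from RefSeq tables of GRCm38.p6, whose coordinates are those of mm10. Peaks overlapped when they shared at least 1 bp. Strand was known only for genes with promoters on 1 strand. Scripts used Python 3.11.15, numpy 2.4.6 and pandas 2.3.3 and were checked on simulated data.

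Genes, 55 gene lists and 14 motifs were chosen with earlier results of these data known. The text names the 10 highest genes of each class by score, up to 4 members with both marks and 3 with 1 mark per list, and 25 candidates. Some genes under that rule are not reported here. Other genes were named after their values were seen. Alternatives were the gene-end distance, isolated gene ends, score filters and stricter overlap; start sites and autosomes alone were added after seeing the data.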

Additional observations from a re-analysis of the deposited data

How the results depend on the processing

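The share of H3ac genes with HDAC1, 18.7%, was 16.2% with gene ends within 0.5 kb and 21.2% within 2.5 kb. It was 15.3% for isolated gene ends (no other gene end within 2 kb), 10.0% with the higher-scoring 50% of HDAC1 peaks, 20.9% with the higher-scoring 50% of H3ac peaks and 22.9% with as many top H3ac peaks as HDAC1 peaks. The share of HDAC1 genes with H3ac, 80.7%, became 78.6% within 0.5 kb, 72.5% for isolated ends, and 82.7%, 68.0% and 54.3% under those score filters. The difference between the highest and lowest quintile of H3ac score, 17.6 points, was 14.8 within 0.5 kb, 14.9 for isolated ends, and 9.74, 14.2 and 13.9 under the filters. The share of HDAC1 peaks overlapping H3ac, 27.7%, was 22.6% with the higher-scoring 50% of H3ac peaks, 17.7% with the equal number and 23.2% where at least 50% of the HDAC1 peak had to overlap. The inner 50% of the H3ac peak held 53.3% with the equal number and 57.9% with that overlap, against 48.5%. Fewer peaks or a narrower window leave fewer genes to mark by construction. Autosomes alone moved none of these 5 values out of its interval, nor did start sites for the first 3; the peak overlap and the inner 50% do not use genes. No paired analysis was possible because each target has 1 library.

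The 49 lists with at least 5 H3ac genes were run in 5 settings, the reported one included, all on the same peak lists. ATF4 targets and ribosome biogenesis had intervals above the share over all H3ac genes in all 5, and translation initiation factors in 4. Glycolysis, primed epiblast, the Myc network, RNA polymerase II and neuronal genes under REST did so in 3. No allowance was made for comparing 49 lists. That share is also not matched for H3ac score. As reported, the intervals of ribosome biogenesis and initiation factors include the 29.4% of their score quintile.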
